A study of Mus musculus with 3 samples.

Results

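Spata genes are mouse genes whose symbol is Spata (for spermatogenesis associated) followed by a number. All protein-coding genes with such a symbol in the GENCODE vM39 annotation were taken, which gave 43 of 21770 genes, 20 in the Spata31 family and 23 outside it. The rule uses the symbol alone. Their RNA contacts with Tra2β were measured by iCLIP in testes of adult mice of wild type genotype. Ultraviolet light fixes the protein to the RNA it touches, an antibody (here a polyclonal one against Tra2b) pulls it down, and the end of each cDNA marks a crosslinked nucleotide. The 3 biological replicates form 1 group of mixed testis cells that were released by mincing. Libraries of another antibody, of input RNA or of a knockout were not analysed here, and all comparisons are between RNAs or parts of an RNA in the same library.

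Tra2β is an SR-like splicing activator that binds purine-rich RNA containing GAA and promotes the inclusion of exons that hold it. Spata genes share a name rather than a sequence or a pathway. The Spata31 family is the exception, a group of duplicated testis genes, many of them with 1 dominant coding exon. Other members serve chromosome exchange in meiosis, the acrosome, the attachment of the sperm head to the tail, the tail and its mitochondria, or signalling outside the germ line.

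The deposited counts summed to 348033, 619571 and 488719 crosslinks in replicates 1, 2 and 3. A crosslink is 1 unique cDNA at 1 nucleotide and strand. Levels are given as CPM, in which the crosslinks in exons and introns of protein-coding genes are scaled to the same total in each library, and where 3 counts equal 13.4, 9.78 and 8.71 CPM in replicates 1, 2 and 3. Markers of spermatids and spermatocytes fitted the tissue label. The exons of 7 spermatid genes held 751, 178 and 1282 crosslinks and those of 5 spermatocyte genes 129, 110 and 272, while 4 blood and immune genes held 0, 1 and 0, with Hbb-bs and Hba-a1 at 0 in every library. Sertoli markers held 54, 30 and 63 exonic crosslinks, with Amh at 0, and Leydig markers 34, 24 and 44. The 4 spermatogonia markers, also germ cell genes, held fewer than both, with 10, 9 and 9. A crosslink count rises with the amount of an RNA, and fewer cells of a type and less RNA per cell cannot be told apart in these samples.

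Stretches of 30 nt with the most crosslinks in an exon are shown first, because they give the RNA that Tra2β touched in the genes described below. They are from GRCm39, written 5′ to 3′ on the strand of the gene, with each GAA in capitals. The Spata6 stretch lies at chr4:111636258-111636287 on the plus strand, the Spata1 stretch at chr3:146181085-146181114 on the minus strand and the Spata33 stretch at chr8:123948589-123948618 on the plus strand. The Spata31f3 stretch is at chr4:42871559-42871588 and the Spata31h1 stretch at chr10:82122617-82122646, both on the minus strand. All 5 are coding sequence. The Spata4 stretch, at chr8:55063047-55063076 on the plus strand, is in the 3′ UTR.

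Spata6 exon 7: catcaagatcacaGAAGAAaaagtccaagt

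Spata1 exon 10: GAAacaagtaaagGAAGAAcGAAaatatct

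Spata33 exon 3: aagaGAAgtgtcatcccgcagatcatcatc

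Spata31f3 exon 4: gtcatcttcaagtatggacgagcatggggt

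Spata31h1 exon 4: gatttcaaGAAgttacagataaaaGAAgtt

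Spata4 exon 6: tgtctaccacagtctgagtatataatgtct

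These stretches differed in purine content and in how much of the exon they held. The Spata1 stretch was 76.7% purine with 4 GAA and took 4, 2 and 15 crosslinks in replicates 1, 2 and 3, which is 46.7% of the 45 in its exon. The Spata6 stretch was 66.7% purine with 2 GAA and took 12, 1 and 20 crosslinks, 36.7% of the exon. In Spata33, the stretch held 1 GAA, and 35, 2 and 64 crosslinks fell there, 62.4% of the exon. The Spata31f3 and Spata4 stretches had no GAA and took 8, 2 and 17 and 7, 0 and 11 crosslinks. Heavily crosslinked stretches of these genes were therefore found both with and without GAA.

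Spata genes as a set took more crosslinks than their number among coding genes. They made up 0.198% of the genes and held 0.840%, 0.712% and 0.899% of the crosslinks of protein-coding genes in replicates 1, 2 and 3 (95% Clopper-Pearson intervals 0.802 to 0.878%, 0.682 to 0.742% and 0.868 to 0.931%), a mean of 0.817% ± 0.0958 (SD, n = 3). In all, 40 of 43 had at least 1 crosslink, 37 had crosslinks in all 3 libraries and 32 (74.4%) reached 20 over the libraries, beside 32.1% of the other 21727 protein-coding genes. The median member had 84.5 CPM, the median of the others was 6.56 CPM, and 37 members were above that median. Testis-expressed Tex genes (39 genes) had a median of 27.5 CPM and cilia and flagella associated Cfap genes (48 genes) one of 123 CPM, so the Spata median lay between those of the other testis-rich gene names. Among members, 12 genes held 77.5% of the 7167 crosslinks.

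**Figure D1:**
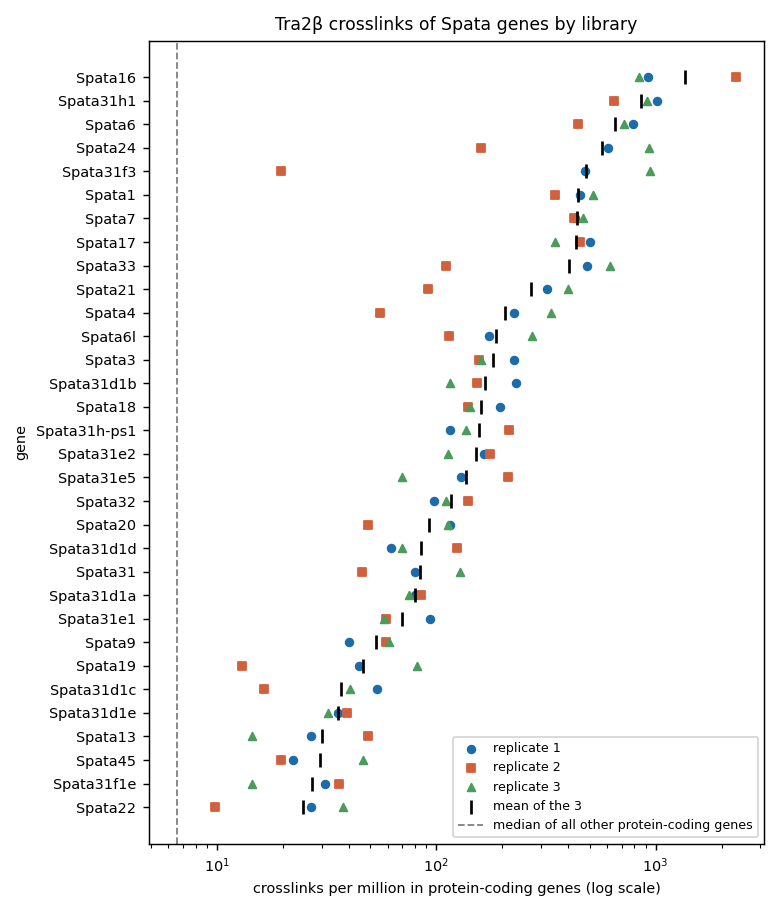
Crosslinks in CPM (log axis) of the 32 Spata genes with at least 20 crosslinks, with 1 point per library, a tick at the mean of the 3 and a dashed line at the median of all other protein-coding genes. All means lie above that line of 6.56 CPM, and Spata16 in replicate 2, at 2338 CPM, is the highest single value.

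Spata16, a protein of the acrosome and Golgi, had the highest mean CPM of the members, 1369 ± 840 (SD, n = 3), and was 28th of all protein-coding genes. Its level was 927, 2338 and 842 CPM in replicates 1, 2 and 3. Replicate 2 was far above the other 2, which lay close together. Without replicate 2 its mean was 884 CPM, below the 961 CPM of Spata31h1 without it, so its lead rests on that library. The excess was intronic: introns held 165, 703 and 159 crosslinks and exons 43, 14 and 131. Introns 2, 4 and 10, the longest, took 141, 185 and 190 of the replicate 2 crosslinks, against 39, 34 and 23 in replicate 1. Exonic density had another order, with 64.8 exonic crosslinks per kb in replicate 3, 21.3 in replicate 1 and 6.92 in replicate 2. Exonic density exceeded intronic density in each library, by 5.48, 1.81 and 7.13 on the log2 scale.

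Spata31h1, the member with the longest exon, was 79th with 1011, 646 and 911 CPM. Exon 4, of 14745 nt, took 211, 167 and 297 of its 216, 170 and 303 exonic crosslinks. They were spread along the exon. Cut into 10 pieces of equal length, it held 11 to 30 crosslinks a piece in replicate 1, 4 to 27 in replicate 2 and 22 to 40 in replicate 3, and the densest 30 nt held only 1.63% of the exon's 675. Repeated sequence made up 10.9% of the 31 nt words of its exons.

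**Figure D2:**
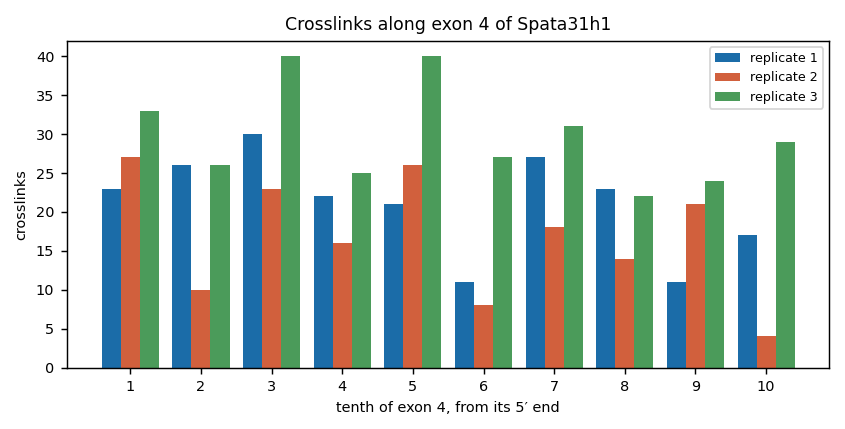
Crosslinks in 10 pieces of equal length of exon 4 of Spata31h1, counted from its 5′ end, with 1 bar per library. Every piece was crosslinked in every library, from a low of 4 (replicate 2, last piece) to a high of 40 (replicate 3).

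Spata6 is required to build the connecting piece between sperm head and tail. It was 143rd at 793, 444 and 720 CPM, with 62, 16 and 147 exonic and 116, 120 and 101 intronic crosslinks. Its paralogue Spata6l had 22, 13 and 75 exonic and 17, 22 and 19 intronic crosslinks, and 174, 114 and 273 CPM. Raw intron counts, not scaled for depth, differed little across the libraries in both genes, while exon counts were lowest in replicate 2. Spata46, a sperm head protein, had 4, 1 and 2 exonic crosslinks, too few to test.

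Genes of the sperm tail and mitochondria differed widely. Spata33, which ties calcineurin to sperm mitochondria, had 98, 10 and 185 exonic crosslinks in only 730 nt, or 134, 13.7 and 253 per kb, and was 14th of all genes by exonic CPM per kb. Spata17, an IQ motif protein, was 365th by CPM through its introns, with 7, 12 and 15 exonic and 106, 127 and 105 intronic crosslinks. Spata18, the mitochondrial quality factor Mieap, had 24, 13 and 29 exonic crosslinks. Spata19, a mitochondrial protein of the midpiece, had 10, 1 and 27.

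Spata24 was the densest member and 13th of all genes by exonic CPM per kb, with 92, 19 and 222 crosslinks in 724 nt of exon, or 127, 26.2 and 307 per kb. Almost all of it is overlapped on the same strand by another protein-coding gene model, Gm50318, and their crosslinks cannot be told apart. Spata31f3 was 33rd with 97, 6 and 315 exonic crosslinks, or 58.6, 3.63 and 190 per kb. Exon 1 of Spata31f3 took 12, 0 and 82 of them, so replicate 3 gave most. Spata4, 65th, had 46, 10 and 104 exonic crosslinks, and Spata1, 111th, had 47, 29 and 124. Replicate 3 was highest and replicate 2 lowest in all 5 of these dense genes.

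Members best known outside germ cells had few crosslinks, except for Spata7. Spata7, a protein of the photoreceptor connecting cilium, had 428, 424 and 467 CPM, the narrowest spread among the 12 highest members, with 31, 18 and 101 exonic and 65, 112 and 60 intronic crosslinks. Spata13, an exchange factor for Rac and Cdc42, had 1, 2 and 2 exonic and 5, 13 and 3 intronic crosslinks. Spata2, the adaptor that joins the deubiquitinase Cyld to the linear ubiquitin ligase, had 0, 6 and 3 exonic crosslinks, and its paralogue Spata2l had 3, 7 and 1. The meiotic gene Spata22, a partner of Meiob in recombination, had 2, 2 and 3 exonic crosslinks, and another coding gene model, Gm49340, covers it on the same strand.

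The 10 Spata31 genes given next had exonic crosslinks in each library, and exons held 76.9% to 100% of their summed crosslinks. Exons of Spata31d1b held 51, 42 and 40 crosslinks, those of Spata31e2 held 31, 36 and 33 and those of Spata31e5 held 23, 56 and 15. Spata31d1a had 17, 21 and 21, Spata31d1d 14, 32 and 23, Spata31e1 19, 16 and 16 and Spata31 itself 12, 14 and 42. Lower still were Spata31d1c (12, 5 and 14), Spata31d1e (6, 11 and 11) and Spata31g1 (6, 7 and 5). No intronic crosslink was found in Spata31d1c or Spata31g1 in any library. Spata31f1a and Spata31f1e overlap each other on the same strand, with 3, 4 and 2 and 0, 2 and 1 exonic crosslinks.

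Spata3 and Spata21 are described with the exon and intron comparison. The other members outside the Spata31 family not yet named had 5 to 103 crosslinks over the libraries. Spata20, with 16 exons in a short gene, had 26, 12 and 38 exonic crosslinks and 0, 3 and 1 intronic ones. Spata32 had 12, 6 and 26 in exons and 10, 37 and 12 in introns, and Spata9 had 3, 2 and 7 and 6, 16 and 14. Spata45 had 5, 1 and 13 exonic crosslinks and Spata25 had 3, 0 and 2. Exons of Spata20 thus held nearly all of its contacts and introns of Spata9 most of its own, while Spata32 had more intronic than exonic crosslinks in replicate 2 only.

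Near-identical copies limited the Spata31 family. The genes Spata31f1b, Spata31f1c and Spata31f1d had 0 crosslinks in all 3 libraries, and 100% of the 31 nt words in their exons recur elsewhere in the genome. A count of 0 would allow up to 13.4, 9.78 and 8.71 CPM in replicates 1, 2 and 3 only if reads of such copies were placed, which is not known. Spata31e3 and Spata31e4, with 93.3% and 96.0% recurring, had 1 and 3 crosslinks in all. For 8 members over 50% of the words recur, and how the pipeline placed reads of such copies is not given in the sources used here, so their counts are uncertain. For 31 members under 10% recur. Spata31h-ps1, annotated as protein coding, had 22, 46 and 40 exonic crosslinks with 61.3% of words recurring.

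To ask whether Tra2β contacts fell in exons or introns of these genes, exonic and intronic crosslinks of the canonical transcript were compared per nucleotide. Exons took 60.6%, 31.1% and 73.5% of the members' crosslinks (95% Clopper-Pearson intervals 58.4 to 62.9%, 29.2 to 33.1% and 72.0 to 75.1%), a mean of 55.1% ± 21.8 (SD, n = 3). All other protein-coding genes had 43.0%, 26.8% and 55.5%, with a mean of 41.8% ± 14.4. The member share was above that of the other genes in each of the 3 libraries, and the spread between libraries was larger than this gap. The Spata31 family, with short introns, had 90.0%, 81.6% and 93.4% in exons. Members outside it had 47.3%, 13.0% and 64.8%. Per kb, exons of members exceeded their introns 12.3-fold, 3.59-fold and 22.1-fold, beside 8.88-fold, 4.32-fold and 14.7-fold for the other genes. The member value was above the other genes in replicates 1 and 3 and below them in replicate 2.

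Of the 32 members with at least 20 crosslinks, 18 (56.3%) had higher exonic than intronic density in all 3 libraries at an adjusted p under 0.05 (exact binomial test per library, Benjamini-Hochberg over all genes tested). Of all 6907 genes tested, 32.3% were called higher. None of the members was called lower in exons, beside 0.0145% of all genes, and 0 were lower in all 3 libraries at an unadjusted p under 0.05. The median log2 fold of the members was 3.14, and that of all tested genes 2.50. Cfap genes had 22 of 44 called and Tex genes 6 of 22. The test calls more genes where counts are high, and members had more crosslinks than the typical gene. Among genes with at least 50 crosslinks, 18 of 24 members were called, beside 50.9% of all genes in that class.

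The largest exonic excess with a call was in Spata31f3, with 4.67, 5.16 and 6.24 in replicates 1, 2 and 3 and a mean log2 fold of 5.36 ± 0.80 (SD, n = 3; exact binomial test, highest adjusted p = 0.00243). Introns of Spata31f3 held 10, 0 and 11 crosslinks, so its replicate 2 fold rests on 6 exonic crosslinks and the 0.5 added to each count. Spata4 (5.19 ± 1.53), Spata21 (5.10 ± 2.46) and Spata33 (5.10 ± 2.39) followed, each lowest in replicate 2. Spata21 is an EF-hand protein, and its exons held 64, 11 and 130 crosslinks against 8, 17 and 7 in introns. Spata1 had the firmest call outside the Spata31 family, at 4.23 ± 1.29 with a highest adjusted p of 1.70e-13 (exact binomial test), and Spata31h1 the firmest of all, at 4.20 ± 1.12 with 1.96e-32. For Spata1 and Spata31h1, 11.2% and 41.7% of intronic 31 nt words recur in the genome, beside 0% and 10.9% of exonic ones. The effect of recurring words on the folds was not tested. Among the 14 members not called, Spata19 and Spata45 had log2 folds of 6.97, 1.36 and 6.78 and of 7.16, 1.82 and 5.64. For both, replicate 2 held 1 exonic crosslink and replicate 1 held 0 intronic ones. Spata3 stood apart, with 9, 4 and 10 exonic and 42, 44 and 45 intronic crosslinks and a log2 fold of 0.59 ± 0.67. Spata31e2 and Spata31e5 also lay near 0, at 0.17 ± 0.78 and 0.49 ± 0.94. A lncRNA, Gm45942, covers Spata31e5 on the same strand.

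**Figure D3:**
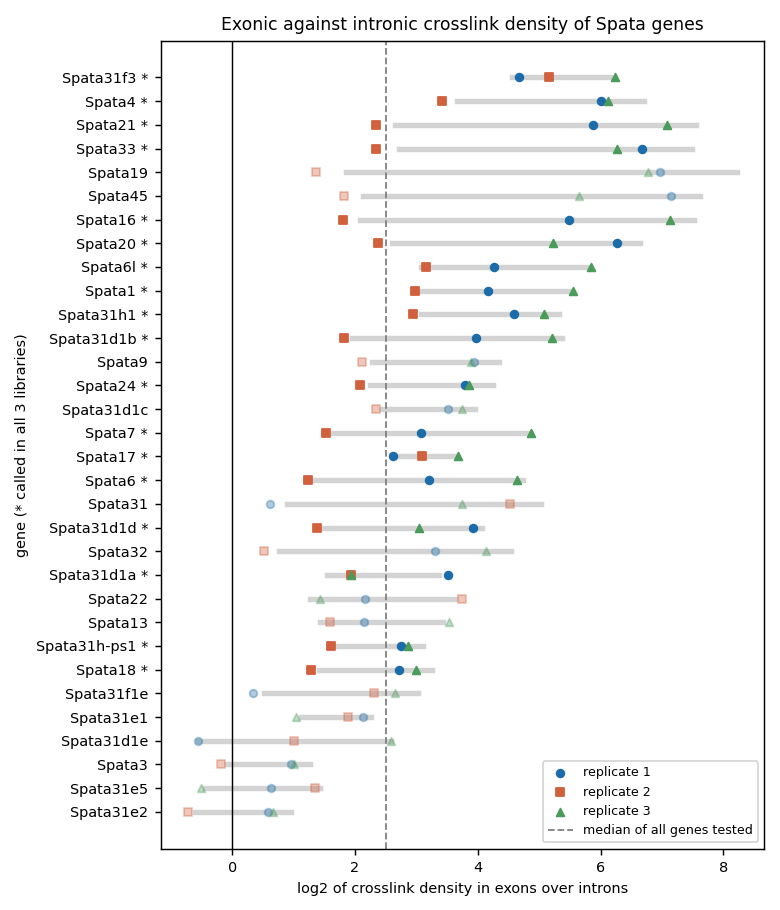
Log2 ratio of crosslink density in exons over introns for the 32 Spata genes tested, with 1 point per library, grey bars for the mean ± SD, stars and full colour for the 18 called in all 3 libraries and a dashed line at the median of all genes tested (2.50). The replicate 2 point is the lowest of the 3 in 23 genes and the highest in 3.

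Within exons, coding sequence carried most contacts of members outside the Spata31 family. It took 86.6%, 84.2% and 86.2% of their exonic crosslinks and makes up 55.7% of their exonic length. The 3′ UTR took 46, 21 and 96 crosslinks on 36.6% of the length, and coding sequence 532, 176 and 1204. Coding sequence had the higher density in every library. The annotated 3′ UTR is that of the canonical transcript, and its use in testis was not tested.

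Single exons were compared with the other exons of their transcript over 193 exons of 27 members. Exon 7 of Spata6 was called higher (0.518% of the member exons, beside 0.164% of 58715 exons of all genes). This exon of 294 nt, at chr4:111636197-111636490, held 25, 8 and 57 crosslinks, while the other 5935 nt of exon held 37, 8 and 90. Its log2 fold was 3.93 ± 0.35 (SD, n = 3; exact binomial test, highest adjusted p = 8.08e-05), and all 3 libraries lay between 3.68 and 4.33. The last exon, exon 13 (chr4:111685383-111690054, 4672 nt, of which 181 nt are coding), was called lower, at -3.76 ± 0.44 with 8, 3 and 31 crosslinks (exact binomial test, highest adjusted p = 0.000846). Lower calls were made for 0.305% of all exons. The 2 calls are linked, because the long last exon is most of the reference for exon 7. Against internal exons only, exon 7 had a log2 fold of 1.90 ± 0.36 and was no longer called (exact binomial test, highest adjusted p = 0.260). Exons 8 to 12 had 119 to 206 crosslinks per kb over the libraries, exon 7 had 306 and exons 1 to 6 had 0 to 50.7. The upstream exons were thus the low part of the coding sequence.

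With the 3 libraries summed, 12 of the 193 member exons were called higher and 11 lower, beside 3.68% and 3.04% of all exons, and those lower included the last exons of Spata1, Spata6l, Spata17, Spata18, Spata21, Spata24 and Spata31f3 besides that of Spata6. These exons were picked out after their values were seen. Exon 10 of Spata1, which holds the purine-rich stretch shown above, had 11, 6 and 28 crosslinks in 126 nt and a log2 fold of 2.09 ± 0.09. It was called without replicate 2 (exact binomial test, highest adjusted p = 0.0233) but not with it. The exon was 71.4% purine with 8.73 GAA per 100 nt. Exon 3 of Spata33 had its peak near its 5′ end, where 1 nucleotide (the 42nd) held 7, 0 and 14 crosslinks.

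Over the 27 member exons that reached 20 crosslinks in sum and 3 per library, the highest log2 folds after these were 2.02 ± 1.40 for exon 5 of Spata31d1a, 1.72 ± 1.28 for exon 2 of Spata24 and 1.64 ± 0.11 for exon 3 of Spata31. Exon 6 of Spata7 had 1.14 ± 0.83, exon 11 of Spata1 had 0.71 ± 0.39 and exon 6 of Spata4 had 0.67 ± 0.14. None of the 6 was called against the other exons, and those of Spata31d1a and Spata31 make up most of the exonic length of their genes. The reference for exon 5 of Spata31d1a held only 2, 1 and 0 crosslinks in replicates 1, 2 and 3. With 0.5 added to observed and expected counts instead, the folds were 0.25 ± 0.09 for Spata31d1a and 0.14 ± 0.02 for Spata31. The other exons of the 6 had 0.42 to 1.24 in that setting. Exon 6 of Spata4 carries the 3′ UTR stretch shown above, with 16, 3 and 32 crosslinks.

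Against their own flanking introns, 8 of the 193 member exons were called higher, beside 2.35% of all exons, namely exon 7 of Spata6, exons 10, 11 and 14 of Spata1, exon 6 of Spata7, exon 3 of Spata33, exon 2 of Spata24 and exon 4 of Spata31h1. Exon 6 of Spata7 had 9, 9 and 25 crosslinks in 434 nt against 9, 19 and 16 in 10633 nt of flanking intron, a log2 fold of 4.48 ± 0.84 (SD, n = 3; exact binomial test, highest adjusted p = 9.07e-05). Spata1 was the member with the most exons called in this way.

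**Figure D4:**
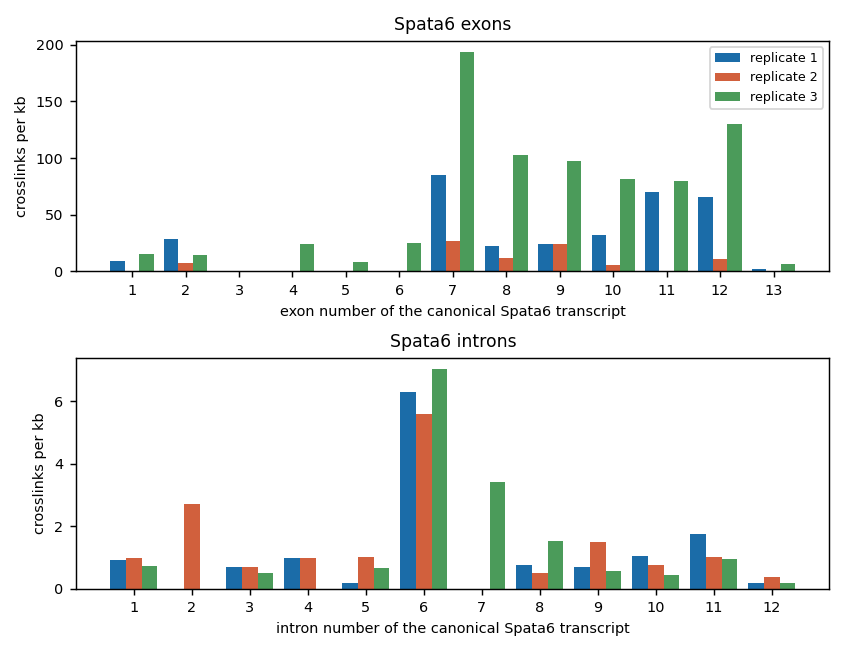
Crosslinks per kb in each exon (upper panel) and each intron (lower panel) of the canonical Spata6 transcript, with 1 bar per library. Exon 7 is the highest exon in replicates 1, 2 and 3 (85.0, 27.2 and 194 per kb), and the adjacent intron 6 is the highest intron in each (6.31, 5.58 and 7.04 per kb).

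Introns were compared with the other introns of their gene over 142 introns of 19 members, and 2 (1.41%) were called higher, beside 0.313% of 75071 introns of all genes. No member intron was called lower by the exact binomial test, beside 0.153% of all introns, and at an unadjusted p under 0.05 1 was lower in all 3 libraries, intron 10 of Spata7 with 2, 1 and 1 crosslinks in 4526 nt. Intron 6 of Spata6, which ends where exon 7 begins, held 26, 23 and 29 crosslinks in 4120 nt, with 90, 97 and 72 in the 102573 nt of the other introns. Its log2 fold was 2.93 ± 0.38 (SD, n = 3; exact binomial test, highest adjusted p = 7.95e-08). The raw counts, not scaled for depth, were nearly level across libraries, unlike those of exon 7. They lay away from the ends of the intron, with 0, 0 and 2 in the last 200 nt and 0, 0 and 0 in the first 200 nt. Exons of other Spata6 transcripts cover 789 nt of the intron and held 4, 11 and 11 of them.

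Intron 4 of Spata7 held 39, 78 and 34 crosslinks in 10735 nt, with 26, 34 and 26 in the other 28872 nt of intron. The log2 fold was 2.14 ± 0.42 (SD, n = 3; exact binomial test, highest adjusted p = 0.000453). Exons of other Spata7 transcripts cover 1819 nt of it and held 4, 10 and 4. Both of these introns, and no other member intron, were called again without each library in turn.

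Libraries differed in exonic contacts of Spata genes, and replicate 2 stood apart. For the 27 members with at least 20 exonic crosslinks, the median log2 ratio of exonic CPM in replicate 2 over the mean of the other 2 (1 CPM added to each) was -1.47. It was -1.87 for the 15 members outside the Spata31 family, of which 1 (Spata17) was higher in replicate 2, and -0.16 for the 12 Spata31 members, of which 6 were higher. Over 3645 other genes it was -0.75, with 24.9% higher. The split by family was made after the values were seen. Spata31d1d had 14, 32 and 23 exonic crosslinks and Spata31e5 had 23, 56 and 15, while Spata33 had 98, 10 and 185. Spata31f3 went with the genes outside its family, at 97, 6 and 315. Exonic CPM of the 7 spermatid markers moved the same way, at 3346, 580 and 3720, with that of 5 spermatocyte markers at 575, 359 and 789. Somatic markers were lowest in replicate 2 as well, at 241, 97.8 and 183 for Sertoli cells and 151, 78.3 and 128 for Leydig cells. Spermatogonia markers, at 44.6, 29.3 and 26.1, were lowest in replicate 3. None of the 7 spermatid markers was at 0. Their part in the result was not tested.

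**Figure D5:**
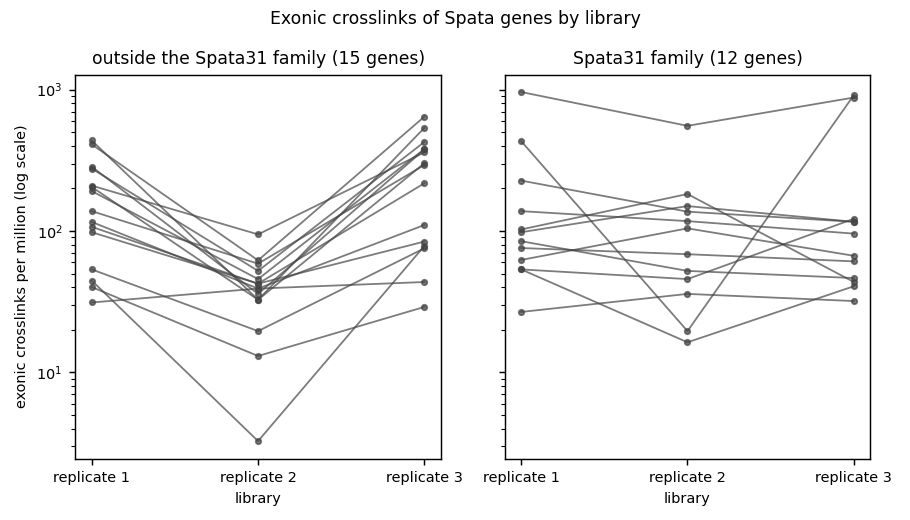
Exonic crosslinks in CPM (log axis) in replicates 1, 2 and 3 of the 15 Spata genes outside the Spata31 family (left) and the 12 Spata31 genes (right) with at least 20 exonic crosslinks, with 1 line per gene. On the left 14 of 15 genes fall below the mean of the other 2 libraries in replicate 2, and on the right 6 of 12 do.

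Across the 43 members, exonic counts gave a Spearman rho of 0.955 between replicates 1 and 3, 0.758 between 1 and 2 and 0.713 between 2 and 3, and intronic counts gave 0.923, 0.828 and 0.862. These are descriptions over genes that share libraries and differ in length. At single nucleotides, replicates 1 and 3 shared 181 crosslinked positions in members, which is 10.1% of those in replicate 1, beside 4.52% in other genes. Replicates 1 and 2 shared 26, or 1.46% of those in replicate 1, beside 1.22% in other genes. Replicates 2 and 3 shared 35, or 1.64% of those in replicate 2, beside 1.37% in other genes. Only 6 positions were crosslinked in all 3 libraries, or 0.336% of those in replicate 1, close to the 0.323% in other genes. Of these, 5 were exonic, in Spata24 (3 positions in exon 2), Spata33 and Spata31f3, and 1 was in an intron of Spata31e5. Within 5 nt, 94 positions of replicate 1 (5.27%) had partners in both other libraries, beside 3.24% in other genes. Members had a higher median CPM than other genes, and its effect on these shares was not tested.

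Purine pentamers were looked for near the exonic crosslinks, within 30 nt on either side and on the strand of the gene. The pentamer GAAGA was searched together with the shifted form AGAAG and the other shifted form AAGAA, which can overlap each other. They lay near 43.3%, 44.1% and 43.3% of the members' exonic crosslink positions (95% Clopper-Pearson intervals 40.3 to 46.4%, 40.3 to 48.0% and 41.1 to 45.5%) and near 39.2%, 37.5% and 40.5% of all positions of the same exons, weighted by the crosslinked positions of each exon. The ratio was 1.11, 1.17 and 1.07, a mean of 1.12 ± 0.0538 (SD, n = 3). All other protein-coding genes gave 1.14, 1.29 and 1.12, a mean of 1.19 ± 0.0940. The ratio was above 1 in each library for the members. It was below that of the other genes in each, but with any GAA in place of the pentamers the member ratio in replicate 1 was 1.05 and that of the other genes 1.03. In replicates 2 and 3 the member ratio with any GAA stayed below, at 1.04 and 1.01 beside 1.08 and 1.02.

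Known partners of members, a list of 15 genes, were also measured. Of 10 tested, 2 were called higher in exons, a share below the 32.3% of all genes, and both were partners of Spata7 at the photoreceptor cilium: Rpgrip1, with 171, 67 and 372 exonic crosslinks, and Rpgr, with 28, 11 and 42. The partners of Spata33 in calcineurin, Ppp3cc and Ppp3r2, had 22, 6 and 41 and 12, 3 and 22, and were not called. Meiob, the partner of Spata22, had 1, 2 and 4.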

How the data were processed

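The authors processed each iCLIP library with the iMAPS pipeline, and the submitters' processing notes name Trim Galore 0.6.7, Bowtie 1.3.1, STAR 2.7.9a, UMI-tools 1.1.2 and the genome build mm39. The deposited values are whole-number counts of unique cDNAs per crosslinked nucleotide and strand, neither scaled nor pooled, and positions without a cDNA are not listed. Sequence names and positions were checked against GRCm39, and all fitted it. How reads that map to several places were treated is not given in the sources used here. Depth was 348033 to 619571 crosslinks, and intervals cover counting error only.

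Crosslinks were counted by strand in exons and introns of the Ensembl canonical transcript of each protein-coding gene (GENCODE vM39) with Python 3.11.15, numpy 2.4.6, scipy 1.17.1 and pandas 2.3.3. Exons against introns, each exon against the other exons and each intron against the other introns were compared in each library by a two-sided exact binomial test, with the expected share set by length. Genes needed 20 crosslinks over the libraries (all, exonic or intronic). P-values were adjusted (Benjamini-Hochberg) over all genes, exons or introns tested in a library, and a call needed each of the 3 libraries to pass an adjusted p of 0.05 with one direction. Log2 folds have 0.5 added to each count. A single group allows no test between groups. Recurring sequence was searched as 31 nt words over the whole genome. Scripts were tested on simulated data.

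Named genes were the 12 members with the highest CPM, the 5 with the highest exonic density, those with 0 crosslinks, the 8 exons with the highest folds and every call, and members whose role is given. Members, gene lists and tests were chosen with earlier results of these data known. Alternatives counted each position once, used exons of all transcripts, left out bases shared with other genes or 100 nt at intron ends, required 5 or 50 crosslinks, summed or left out libraries, and changed the reference or window.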

Additional observations from a re-analysis of the deposited data

Results flagged for a closer look

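Crosslinks on the strand opposite to 5 Spata genes were above the limit of 3 counts that a count of 0 allows in each library. No control library was analysed here, and the annotated antisense genes given are those of GENCODE vM39. Spata31f1e had 140 opposite-strand crosslinks (18, 93 and 29 in replicates 1, 2 and 3), against 23 on its own strand, and all 140 lie in the lncRNA 4930578G10Rik. Spata17 had 81 (24, 26 and 31) opposite its canonical transcript. Where they overlap the Spata17 gene, the lncRNA 1700007P06Rik held 23, 18 and 28 and the coding gene Gpatch2 held 4, 1 and 1. These counts can reach beyond the canonical transcript or overlap each other, so they are not given as parts of the 81. Spata16 had 63 (14, 39 and 10), of which 5, 16 and 6 lie in the lncRNA Gm32458 and 2, 1 and 0 in Gm65438. Spata32 had 25 (10, 8 and 7), of which 8, 5 and 5 lie in the lncRNA Gm51920. Spata31f3 had 20 (5, 10 and 5), beside 3, 7 and 4 in 4930578G10Rik where it overlaps the Spata31f3 gene. The source of the other opposite-strand crosslinks was not tested.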

How the results depend on the processing

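The count of 18 members called in the exon against intron test ranged from 16 to 27 over the alternatives (27 with libraries summed, where 71.6% of all genes were called, and 18 to 23 without 1 library), and none was called lower in any. Using exons of all transcripts lost Spata7, Spata18 and Spata24 and gained Spata31e1, and leaving out bases shared with another gene lost Spata24, for which no base remained. Of the exon calls, libraries summed gave 23, flanking introns as the reference 8 and internal exons 1, where exon 7 of Spata6 was lost, and leaving out 1 library gave 2 to 7 (7 without replicate 2). Libraries summed gave 14 introns, of which 4 were higher, and leaving out 1 library gave 2 to 2. Against flanking introns, the log2 fold of exon 13 of Spata6 turned to 2.66, and against internal exons that of exon 3 of Spata31 turned to -0.0192, neither of them called. The member share of crosslinks was 0.509% when scaled to all crosslinks of the library, where crosslinks outside protein-coding genes enter the total, and 0.776% to 0.870% without 1 library. The exon share was 45.9% to 67.1% without 1 library. Positions shared by all libraries rose to 94 within 5 nt, and leaving out 1 library gave 26 to 181, where fewer libraries have to match. The pentamer ratio was 1.03 with any GAA and 1.09 to 1.14 without 1 library. Both intron calls and a mean pentamer ratio above 1 held in each alternative run for them. Low counts limit single exons, since replicate 2 held fewer than 20 exonic crosslinks in most members.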
